A study of Mus musculus with 36 samples.

Results

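The RNA levels of 10 genes of innate inflammation were measured in mouse livers that differed in LXRalpha genotype, diet and drug treatment. Tlr4, Tlr2 and Cd14 encode sensors of microbial products and tissue damage, Nlrp3 and Casp1 encode parts of the inflammasome, Tnf, Il1b and Il1a encode cytokines, and Nos2 and Ptgs2 encode inducible enzymes that make inflammatory mediators. The genes were chosen by their symbols among the 49315 genes of the deposited liver expression table, and 10 of 10 were found. Values are in TPM, a unit in which the reads of a gene are divided by its length and then scaled to the same total in each library.

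In these pathways TLR4 binds bacterial lipopolysaccharide with CD14 as its co-receptor, and TLR2 binds bacterial lipopeptides. Both signal to NF-kappaB, a transcription factor that switches on cytokine genes, among them Tnf, Il1b and Nlrp3 itself. NLRP3 then assembles the inflammasome, in which caspase-1 cuts the IL-1beta precursor into the active cytokine, so the RNA levels given here do not measure released IL-1beta. In the liver these genes are known mostly from Kupffer cells (the resident macrophages), recruited monocytes and neutrophils. LXRalpha is a nuclear receptor for oxidised cholesterol that controls cholesterol efflux and fatty acid synthesis, and its agonists are known to repress inflammatory genes in macrophages.

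The animals were 36 male mice aged 11 to 12 weeks, in 9 groups of 4, made from 3 genotypes and 3 conditions. CRISPR had replaced tryptophan (W) 441 of LXRalpha by phenylalanine (F), and W/W mice (homozygous controls), W/F mice (heterozygotes) and F/F mice (homozygous mutants) were compared. The labels name no tissue-specific promoter or Cre, and they pair LXRalpha with the symbol Nr1h2, whereas its usual symbol is Nr1h3. In each genotype 4 mice ate normal chow. The others ate Teklad TD.96121 for 4 weeks, a high-cholesterol, high-fat feed used to bring on metabolic dysfunction-associated steatohepatitis (MASH diet below), and over the last 2 weeks received by gavage, each day, either vehicle or 10 mg/kg of T0901317, a synthetic LXR agonist. Chow mice formed a cohort of their own, so diet and cohort cannot be told apart in any comparison of chow with MASH diet.

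Promoters of 7 of the 10 genes were found in the RefSeq promoter table (build GRCm38.p6). Tlr4, Cd14 and Nos2 have no entry in it. The 250 bases before the start site of the promoter table are shown for 4 genes whose RNA levels the results turn on. Each match to the NF-kappaB consensus is in capitals, read 5′ to 3′ on the gene's strand. They lie at chr3:83841609-83841858 (minus strand, Tlr2), chr11:59541319-59541568 (plus strand, the upstream one of 2 Nlrp3 entries), chr17:35202008-35202257 (minus strand, Tnf) and chr2:129371140-129371389 (minus strand, Il1b).
Tlr2: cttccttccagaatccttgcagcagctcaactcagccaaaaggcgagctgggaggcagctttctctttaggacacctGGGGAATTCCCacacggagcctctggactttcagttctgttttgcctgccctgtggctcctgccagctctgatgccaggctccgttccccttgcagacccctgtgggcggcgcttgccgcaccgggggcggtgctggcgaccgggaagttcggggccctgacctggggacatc
Nlrp3: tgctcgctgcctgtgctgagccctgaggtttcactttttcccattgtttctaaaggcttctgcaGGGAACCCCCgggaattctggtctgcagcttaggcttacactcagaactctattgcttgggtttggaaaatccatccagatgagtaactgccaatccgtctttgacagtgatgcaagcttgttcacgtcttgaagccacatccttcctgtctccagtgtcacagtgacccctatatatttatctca
Tnf: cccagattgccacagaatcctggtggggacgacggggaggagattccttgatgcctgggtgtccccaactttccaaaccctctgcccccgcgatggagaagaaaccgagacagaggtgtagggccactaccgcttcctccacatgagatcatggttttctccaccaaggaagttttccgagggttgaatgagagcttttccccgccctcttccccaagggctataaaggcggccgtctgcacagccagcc
Il1b: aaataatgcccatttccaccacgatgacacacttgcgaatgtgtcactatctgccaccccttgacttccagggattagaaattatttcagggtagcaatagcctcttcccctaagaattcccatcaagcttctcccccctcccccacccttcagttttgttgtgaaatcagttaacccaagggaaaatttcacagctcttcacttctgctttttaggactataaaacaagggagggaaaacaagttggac
Both strands were searched. Tlr2 held 2 overlapping matches that ended 164 and 163 bases from its start site, and the upstream Nlrp3 entry held a match 177 bases from its start site. These start sites are those of the promoter table. The GENCODE M21 annotation puts the 5′ end of Tlr2 elsewhere, at chr3:83841767, inside the printed window. Part of that window is thus transcribed by that annotation, and the distances to its start differ. The other Nlrp3 entry and the windows of Tnf, Il1b, Il1a, Casp1 and Ptgs2 held none, so 2 of 7 genes had a match, against 7.25% of all 32851 promoter windows of this length. The AP-1 pattern TGANTCA was found in Il1a, 6 bases from the start site, and in 6.75% of all windows. The C/EBP pattern TTGCNNAA was found in Ptgs2, 62 bases from the start site, and in 9.56% of all windows. The PU.1 pattern GAGGAAGT (2.44% of all windows) and the LXR DR4 element (0.0152%) were found in 0 of 7 genes. A match says only that these letters are present.

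Libraries held between 18.1M and 35.8M reads, as recovered from the steps of the TPM values. Alb, the serum albumin gene that marks hepatocytes, stood between 18000 and 69068 TPM in the 36 libraries. For the test, the 16638 genes that reached 1 TPM in 4 or more libraries were fitted together with limma on log2(TPM + 1), which understates changes of low genes, and a call means a p under 0.05 after Benjamini-Hochberg adjustment over these genes. Tlr4, Tlr2, Cd14, Nlrp3, Casp1, Tnf, Il1b and Il1a passed this filter. Nos2 and Ptgs2 did not. Tnf, Nlrp3 and Tlr4 each reached 1 TPM in 17 of 36 libraries, so they passed through the groups in which they were high, and the counts over the 8 genes below are descriptions. The middle gene of all 16638 was itself higher by 0.52 (log2) in W/F than in W/W livers on vehicle, higher by 0.70 in F/F than in W/W livers on vehicle, and lower by 0.49 with T0901317 in W/F livers. Dividing each library by its median ratio to the other libraries (rescaled TPM below) brought these to 0.02, 0.04 and -0.04, and calls that this ended are named beside the results. Shares over all tested genes are from TPM as deposited. None is given for rescaled TPM, so counts on rescaled TPM stand without a background.

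One library stood apart from its group. W/F T0901317 replicate 2 lay at 1.00 on the first principal component of all tested genes, while the other 3 of its group lay between 44.9 and 54.5 and the W/F vehicle livers between -76.6 and -61.9. It had the highest level of its group for 10 of 10 genes. Its summed level of 14 macrophage markers was 1756 TPM, against 290 to 432 TPM in the other 3. Its levels of the LXR target genes Srebf1 (341 TPM, others 360 to 470 TPM) and Scd1 (1810 TPM, others 1704 to 2253 TPM) lay close to its group and far above the W/F vehicle livers, at 49.9 to 80.6 TPM and 322 to 616 TPM. Results of the W/F T0901317 group that rest on it are given with and without it. It also widens the estimate of spread that all comparisons share. Without it the SE of Casp1 for T0901317 against vehicle in W/F was 0.22, against 0.31 with it. Comparisons that do not hold this group were not refitted with this library alone left out. Fits of only the groups compared leave it out of them, together with the other groups.

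**Figure D1:**
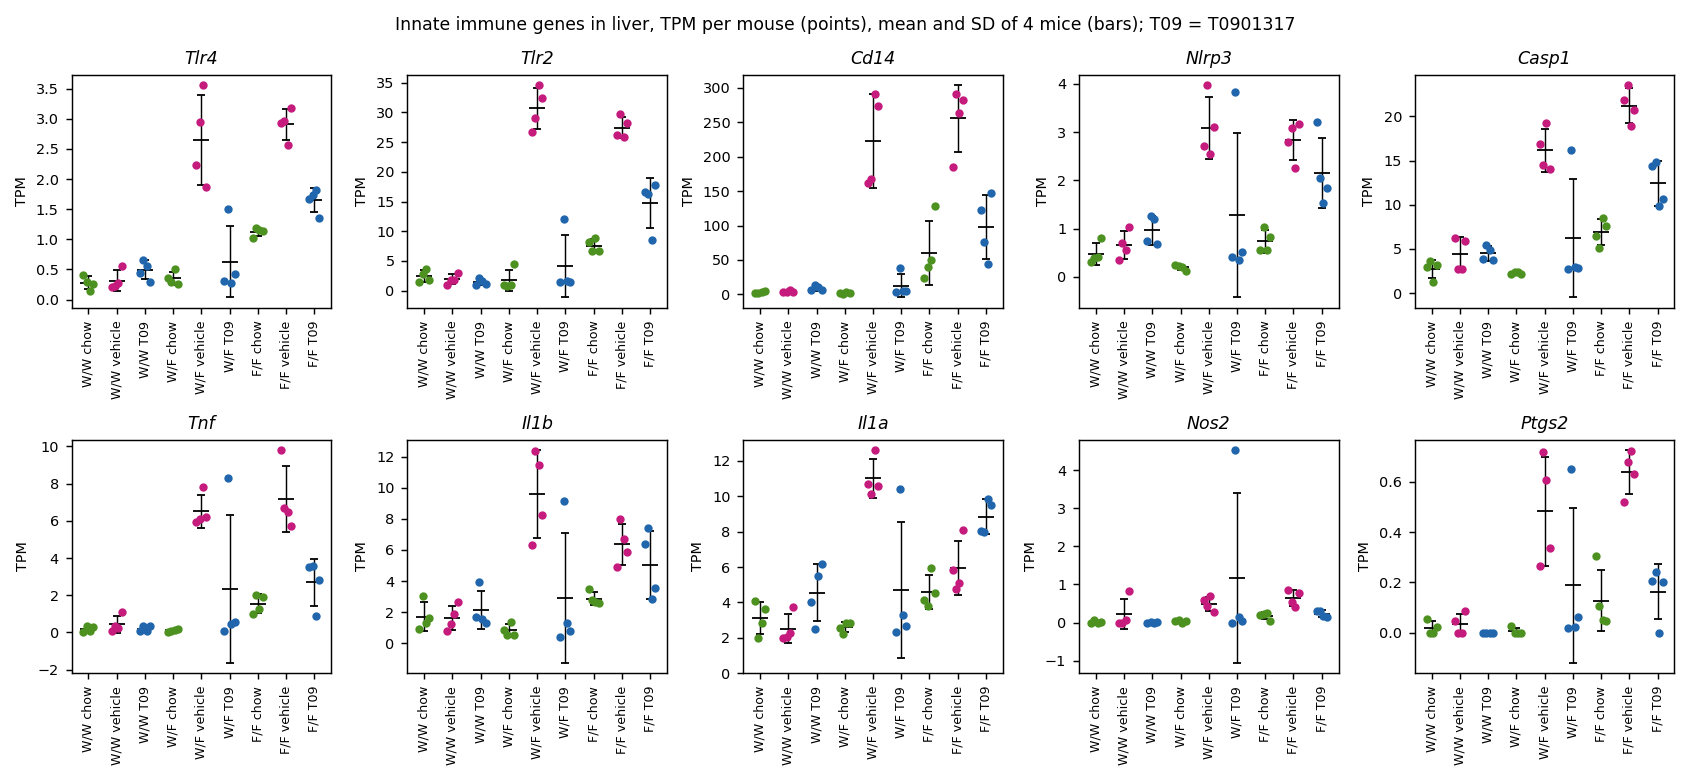
TPM of each of the 10 genes (vertical axes, linear, a scale of its own per gene) in the 9 groups (horizontal axes), where each point is 1 mouse and bars give the mean and SD of 4 mice. W/F vehicle and F/F vehicle points stand above the W/W points for the sensors, and 1 W/F mouse with T0901317 stands far above the other 3 of its group.

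Sensor genes were high in the W/F and F/F livers on MASH diet with vehicle and low in the W/W livers on that diet. Cd14, whose protein hands lipopolysaccharide to TLR4, stood at 3.08, 3.80, 6.34 and 3.50 TPM in the 4 W/W vehicle livers. It stood at 161, 168, 291 and 273 TPM in the W/F vehicle livers and at 185, 291, 263 and 283 TPM in the F/F vehicle livers. The lowest mutant liver was thus far above the highest W/W liver, and W/F and F/F overlapped. Against W/W, the log2 difference of Cd14 was 5.42 (SE 0.49, adjusted p = 8.38e-11, limma) in W/F and 5.65 (SE 0.49, adjusted p = 1.24e-11, limma) in F/F. No other gene of the 8 differed as much.

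Tlr2, the lipopeptide receptor, stood at 0.993, 1.81, 1.80 and 3.06 TPM in W/W vehicle livers. It stood at 26.7, 29.1, 34.6 and 32.4 TPM in W/F vehicle livers and at 26.1, 29.7, 25.8 and 28.2 TPM in F/F vehicle livers. The mutant groups overlapped each other and lay clear of W/W. Its log2 difference from W/W was 3.48 (SE 0.37, adjusted p = 2.37e-09, limma) in W/F and 3.33 (SE 0.37, adjusted p = 2.46e-09, limma) in F/F. Tlr4, the lipopolysaccharide receptor, was lower throughout: it stood between 0.204 and 0.566 TPM in W/W vehicle livers, between 1.87 and 3.56 TPM in W/F and between 2.57 and 3.18 TPM in F/F. Its log2 difference from W/W was 1.46 (SE 0.16) in W/F and 1.58 (SE 0.16) in F/F, with adjusted p = 2.52e-09 and 2.18e-10 (limma).

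Inflammasome genes were likewise higher in both mutants on this diet. Nlrp3, the sensor protein of the inflammasome, stood at 0.356, 0.699, 0.546 and 1.04 TPM in W/W vehicle livers, at 2.71, 3.97, 2.55 and 3.11 TPM in W/F and at 2.80, 3.09, 2.25 and 3.16 TPM in F/F. Its log2 difference from W/W was 1.30 in W/F and 1.21 in F/F (SE 0.25 for both, adjusted p = 2.89e-05 and 5.33e-05, limma). Casp1, the protease that cuts the IL-1beta precursor, stood at 6.27, 2.77, 2.69 and 5.91 TPM in W/W vehicle livers. It stood at 16.8, 14.5, 19.3 and 14.0 TPM in W/F and at 21.8, 23.5, 18.9 and 20.7 TPM in F/F. For both genes the mutant groups lay above the W/W livers with no overlap. The log2 difference of Casp1 from W/W was 1.73 in W/F and 2.11 in F/F (SE 0.31 for both, adjusted p = 1.48e-05 and 4.29e-07, limma).

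Cytokine genes were also higher in both mutants. Tnf, the gene of tumour necrosis factor, was near its counting limit in W/W livers, where 1 to 18 reads per library gave 0.0629, 0.371, 0.246 and 1.08 TPM on vehicle. It stood at 5.92, 6.10, 7.80 and 6.20 TPM in W/F vehicle livers and at 9.78, 6.67, 6.47 and 5.74 TPM in F/F. The log2 difference from W/W was 2.42 in W/F and 2.53 in F/F (SE 0.38 for both, adjusted p = 1.77e-06 and 5.41e-07, limma). Il1b, the inflammasome's substrate, stood at 0.811, 1.22, 1.85 and 2.63 TPM in W/W vehicle livers, at 6.33, 12.3, 11.5 and 8.24 TPM in W/F and at 4.89, 7.97, 6.70 and 5.86 TPM in F/F. Both mutants lay above W/W with no overlap, and they overlapped each other. Its log2 difference from W/W was 2.02 in W/F and 1.52 in F/F (SE 0.38 for both, adjusted p = 2.91e-05 and 0.000675, limma).

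Il1a, an IL-1 that acts on the same receptor without needing caspase-1, was the gene that separated the mutants on vehicle. It stood at 1.99, 2.05, 2.30 and 3.73 TPM in W/W, at 10.7, 10.1, 12.6 and 10.6 TPM in W/F and at 5.82, 4.78, 5.08 and 8.12 TPM in F/F vehicle livers. F/F lay between the other genotypes and overlapped neither. Its log2 difference from W/W was 1.79 in W/F (SE 0.26, adjusted p = 4.2e-07, limma) and 0.99 in F/F (SE 0.26, adjusted p = 0.000921, limma), the latter 0.31 (adjusted p = 0.288) on rescaled TPM. F/F was lower than W/F by 0.81 (SE 0.26, adjusted p = 0.0235, limma), a call that was lost without F/F vehicle replicate 2 (-0.73, adjusted p = 0.0698), F/F vehicle replicate 3 (-0.75, adjusted p = 0.0596) or W/F vehicle replicate 3 (-0.75, adjusted p = 0.0631). Of the exon length of Il1a, 11.2% overlaps Gm14023 on the other strand, and no source used here says whether reads were counted by strand.

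Counted over the 8 tested genes, 8 were higher in W/F than in W/W livers on vehicle, where 61.6% of all tested genes were higher, and 8 were higher in F/F than in W/W, where 69.3% were. Their median log2 difference was 1.91 in W/F, against 0.52 for all tested genes, and 1.84 in F/F, against 0.70. On rescaled TPM 8 stayed called in W/F and 7 in F/F, with Il1a the gene lost. Between F/F and W/F on vehicle, 1 of 8 (Il1a) was lower, where 2.30% of all tested genes were lower, and the other 7 did not pass the test. The 95% interval of the F/F minus W/F difference was -0.77 to 1.22 for Cd14, -0.26 to 1.01 for Casp1 and -1.28 to 0.28 for Il1b, which leaves room for differences in either direction. In a fit of only these 2 groups the difference of Casp1 was called (0.38, adjusted p = 0.0426, limma).

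**Figure D2:**
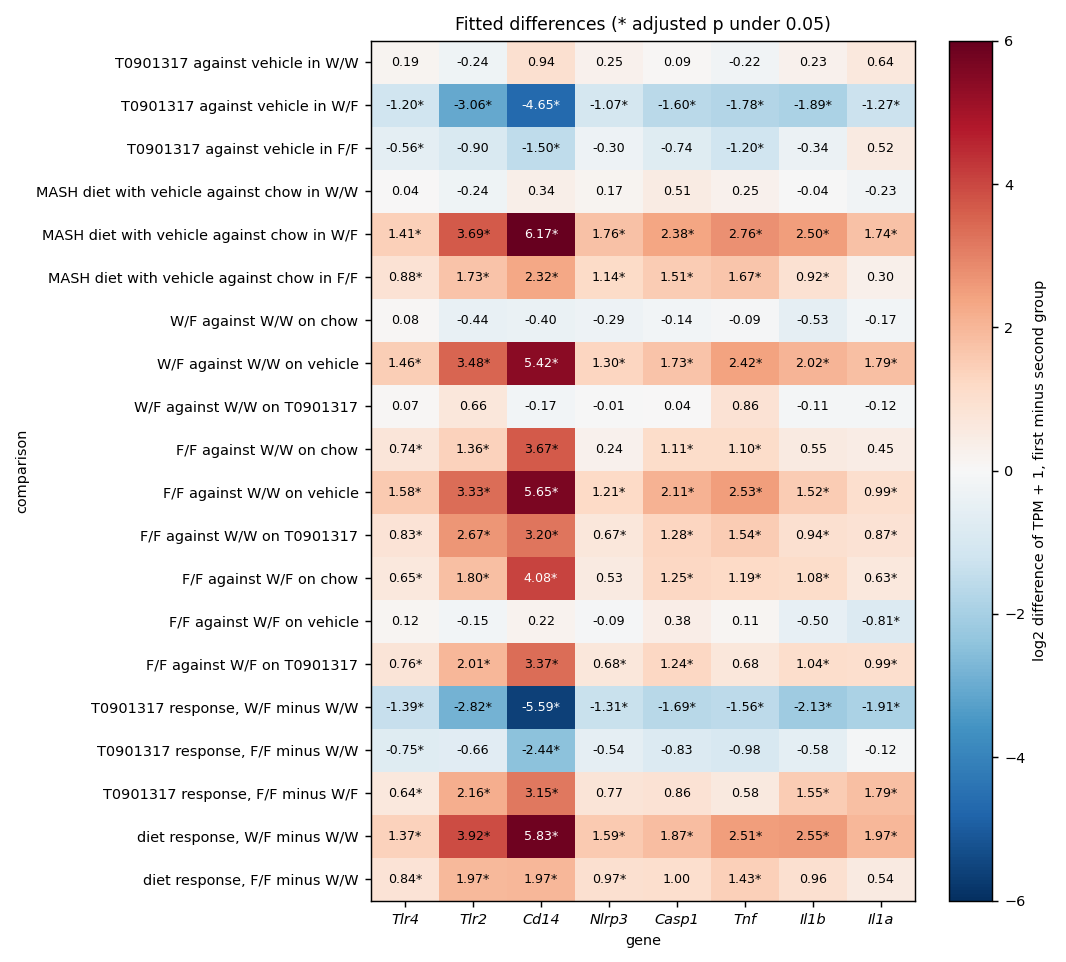
Fitted log2 differences of TPM + 1 (colours, which saturate at 6 and -6, and printed values) for the 8 tested genes (columns) in the 20 comparisons (rows), with an asterisk for an adjusted p under 0.05. The rows of both mutants against W/W on vehicle are called for 8 of 8 genes, and the rows within W/W for 0 of 8.

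MASH diet with vehicle was compared with chow within each genotype. In W/W livers 0 of 8 genes were called by limma, 0 had an unadjusted p under 0.05, and voom on recovered reads also called 0, while 12.9% of all tested genes were called in either direction. Casp1 had the highest difference there, 0.51 (SE 0.31, adjusted p = 0.324, limma). In W/F livers 8 of 8 rose, where 52.4% of all tested genes rose. In F/F livers 7 of 8 rose, where 46.5% of all tested genes rose. Medians over the 8 genes were 0.10, 2.44 and 1.32, against -0.05, 0.39 and 0.32 for all tested genes.

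Levels on chow, from which the diet contrasts start, differed between the mutants for most of these genes. Cd14 stood at 1.96, 2.77, 3.13 and 4.42 TPM in W/W chow livers, at 1.45, 1.35, 3.39 and 2.22 TPM in W/F and at 23.4, 39.6, 50.5 and 129 TPM in F/F. From there the diet contrast of Cd14 was 6.17 (SE 0.49, adjusted p = 5.99e-12, limma) in W/F and 2.32 (SE 0.49, adjusted p = 0.000174, limma) in F/F. Tlr2 stood at 0.914, 0.821, 0.884 and 4.45 TPM in W/F chow livers and at 8.13, 6.69, 8.80 and 6.73 TPM in F/F chow livers. Its diet contrast was 3.69 in W/F and 1.73 in F/F (SE 0.37 for both, adjusted p = 7.73e-10 and 0.000219, limma).

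Tnf stood at 0, 0.0719, 0.141 and 0.213 TPM in W/F chow livers, each at or under 3 reads, and at 1.00, 2.01, 1.28 and 1.92 TPM in F/F chow livers. Its diet contrast was 2.76 in W/F and 1.67 in F/F (SE 0.38 for both, adjusted p = 2.53e-07 and 0.000396, limma). Il1b stood at 0.880, 0.556, 1.40 and 0.550 TPM in W/F chow livers and at 3.49, 2.76, 2.62 and 2.56 TPM in F/F chow livers. Its diet contrast was 2.5 in W/F (SE 0.38, adjusted p = 1.5e-06, limma) and 0.92 in F/F (SE 0.38, adjusted p = 0.0412, limma). The F/F call of Il1b is weak: it was lost on rescaled TPM (0.61, adjusted p = 0.186), without a filter (adjusted p = 0.0719), with a pseudocount of 0.1 (1.11, adjusted p = 0.081), and without F/F chow replicate 2, 3 or 4 or F/F vehicle replicate 2, 3 or 4 (0.82 to 0.95, adjusted p 0.0588 to 0.1).

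Il1a stood at 2.55, 2.21, 2.82 and 2.83 TPM in W/F chow livers and at 4.12, 3.78, 5.95 and 4.56 TPM in F/F chow livers. It rose with the diet in W/F by 1.74 (SE 0.26, adjusted p = 8.56e-07, limma), and its F/F difference of 0.30 did not pass the test (SE 0.26, adjusted p = 0.326, limma). Nlrp3 rose by 1.76 in W/F and 1.14 in F/F (SE 0.25 for both), Casp1 by 2.38 and 1.51 (SE 0.31 for both) and Tlr4 by 1.41 and 0.88 (SE 0.16 for both). These 3 genes were called in both mutants also on rescaled TPM.

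In direct comparisons on chow, 0 of 8 genes differed between W/F and W/W by limma, 0 had an unadjusted p under 0.05 and voom called 0, where 0.487% of all tested genes were called. Nlrp3 levels of those groups did not overlap, at 0.115 to 0.236 TPM in W/F and 0.295 to 0.803 TPM in W/W. Between F/F and W/W on chow 5 of 8 were higher, where 43.0% of all tested genes were higher: Cd14 by 3.67 (SE 0.49), Tlr2 by 1.36 (SE 0.37), Casp1 by 1.11 (SE 0.31), Tnf by 1.10 (SE 0.38) and Tlr4 by 0.74 (SE 0.16). Tnf was the weakest of these (adjusted p = 0.018, limma), and its call was lost on rescaled TPM (0.97, adjusted p = 0.053) and without F/F chow replicate 4 (1.03, adjusted p = 0.0504). Il1b (0.55), Il1a (0.45) and Nlrp3 (0.24) did not pass the test. Between F/F and W/F on chow 7 of 8 were higher, where 37.9% of all tested genes were higher, and 5 on rescaled TPM, where Il1a and Il1b were lost. The Il1b call (1.08, adjusted p = 0.0238, limma) was also lost without F/F chow replicate 1 or W/F chow replicate 2 or 4 (1.00 to 1.01, adjusted p 0.056 to 0.0583). Nlrp3, at 0.53 (SE 0.25, adjusted p = 0.0839, limma), was the gene not called, and Il1a, at 0.63 (adjusted p = 0.0496, limma), lost its call without any of 7 of the 8 libraries compared.

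Whether the diet contrast itself differed between genotypes was tested next. It was larger in W/F than in W/W for 8 of 8 genes, where 49.5% of all tested genes were called in that direction, by 1.37 (Tlr4, SE 0.22) to 5.83 (Cd14, SE 0.69). It was larger in F/F than in W/W for 5 of 8, where 41.5% were: Cd14 and Tlr2 by 1.97 each, Tnf by 1.43, Nlrp3 by 0.97 and Tlr4 by 0.84. Casp1 (1.00, adjusted p = 0.0627), Il1b (0.96, adjusted p = 0.145) and Il1a (0.54, adjusted p = 0.229) did not pass the test (limma). The diet contrasts of F/F and W/F were not tested against each other. On rescaled TPM only Tlr2 stayed called of the 5 (1.55, adjusted p = 0.0235). Without F/F chow replicate 1 the call was lost for Cd14 (1.62, adjusted p = 0.0575) and Tnf (1.32, adjusted p = 0.0584). Nlrp3 lost it without W/W chow replicate 4 or W/W vehicle replicate 1 (0.87 to 0.88, adjusted p 0.0514 to 0.0534), and Tnf also without F/F vehicle replicate 1, W/W chow replicate 2 or 4 or W/W vehicle replicate 1 (1.28 to 1.37, adjusted p 0.0503 to 0.0657). Casp1 gained it without W/W chow replicate 3 (1.22, adjusted p = 0.0262) or W/W vehicle replicate 1 or 4 (1.14 to 1.17, adjusted p 0.0406 to 0.0412).

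T0901317 was given on top of the MASH diet, and its contrast with vehicle differed by genotype. In W/W livers 0 of 8 genes were called by limma and 0 by voom, and 1 (Il1a) had an unadjusted p under 0.05, where 10.8% of all tested genes were called in either direction. Il1a was at 4.06, 2.52, 5.51 and 6.17 TPM with T0901317 in W/W, a log2 difference of 0.64 (SE 0.26, adjusted p = 0.116, limma) that passed without W/W T0901317 replicate 2 (0.84, adjusted p = 0.0443) and with array quality weights (0.74, adjusted p = 0.01). Cd14 was at 5.83, 14.2, 10.4 and 6.52 TPM with T0901317 in W/W, a log2 difference of 0.94 (SE 0.49, adjusted p = 0.247, limma). The other 6 genes had no unadjusted p under 0.05 there.

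In W/F livers 8 of 8 genes fell with T0901317, where 59.3% of all tested genes fell, and 8 stayed called on rescaled TPM. Cd14 stood at 3.60, 38.0, 4.55 and 4.54 TPM with T0901317, against 161 to 291 TPM with vehicle. Its log2 difference was -4.65 (SE 0.49, adjusted p = 2.96e-09, limma) and -5.38 without replicate 2. Tlr2 stood at 1.44, 12.0, 1.58 and 1.51 TPM, against 26.7 to 34.6 TPM with vehicle, with a difference of -3.06 (SE 0.37, adjusted p = 3.9e-08, limma) and of -3.65 without replicate 2. Tlr4 stood at 0.302, 1.51, 0.273 and 0.428 TPM and fell by 1.20 (SE 0.16, adjusted p = 1.19e-07, limma). For these 3 sensor genes the replicate that stood apart was also below the lowest vehicle liver.

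The remaining genes overlapped between T0901317 and vehicle in W/F because of replicate 2 alone. Tnf stood at 0.0540, 8.29, 0.462 and 0.580 TPM with T0901317, a log2 difference of -1.78 (SE 0.38, adjusted p = 0.000147, limma) and of -2.47 without replicate 2. Il1b stood at 0.417, 9.13, 1.31 and 0.798 TPM, with -1.89 (SE 0.38, adjusted p = 7.72e-05, limma) and -2.51 without it. Il1a stood at 2.33, 10.4, 3.29 and 2.70 TPM, with -1.27 (SE 0.26, adjusted p = 7.28e-05, limma) and -1.67 without it. In the 3 other livers the cytokine genes were within the range of W/W livers or below it. Nlrp3 (0.414, 3.83, 0.347 and 0.516 TPM) fell by 1.07, and by 1.51 without replicate 2, and Casp1 (2.78, 16.2, 2.97 and 2.86 TPM) by 1.60 and 2.14.

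In F/F livers 3 of 8 genes fell with T0901317, a count near the 31.2% of all tested genes that fell, and their calls depended on settings. Cd14 stood at 123, 76.0, 44.2 and 147 TPM, all below the 185 to 291 TPM with vehicle, with a log2 difference of -1.50 (SE 0.49, adjusted p = 0.0181, limma). Tnf stood at 3.52, 3.59, 0.898 and 2.81 TPM, all below the 5.74 to 9.78 TPM with vehicle, with -1.20 (SE 0.38, adjusted p = 0.0155, limma). Tlr4 stood at 1.67, 1.74, 1.81 and 1.36 TPM, all below the 2.57 to 3.18 TPM with vehicle, with -0.56 (SE 0.16, adjusted p = 0.00678, limma). Without F/F T0901317 replicate 3 the call was lost for Cd14 (-1.17, adjusted p = 0.0983) and Tnf (-0.91, adjusted p = 0.0953), and on rescaled TPM for Cd14 (-1.23, adjusted p = 0.0677), Tnf (-0.94, adjusted p = 0.0932) and Tlr4 (-0.35, adjusted p = 0.114).

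Tlr2 (16.6, 16.2, 8.53 and 17.8 TPM) and Casp1 (14.4, 14.8, 9.83 and 10.7 TPM) in F/F livers with T0901317 also lay below their vehicle livers without overlap. Their differences of -0.90 (SE 0.37, adjusted p = 0.0584) and -0.74 (SE 0.31, adjusted p = 0.062) did not pass the test in the fit of the 9 groups (limma), and both passed with voom (adjusted p = 0.00762 and 0.0212). Both also passed in a fit of only the groups compared (adjusted p = 0.0153 and 0.00895, limma), which leaves out W/F T0901317 replicate 2. Il1b stood at 6.35, 7.39, 2.85 and 3.53 TPM (-0.34, adjusted p = 0.498, limma) and Nlrp3 at 3.20, 2.05, 1.54 and 1.84 TPM (-0.30, adjusted p = 0.352, limma), and both overlapped vehicle. Il1a was the gene with a positive estimate: it stood at 8.02, 8.0, 9.87 and 9.52 TPM with T0901317 against 4.78 to 8.12 TPM with vehicle. That difference of 0.52 did not pass the test (SE 0.26, adjusted p = 0.109, limma), and on rescaled TPM it did (0.73, adjusted p = 0.0404), so that rescaled TPM gave 1 higher and 0 lower calls in F/F against 0 and 3 before.

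**Figure D3:**
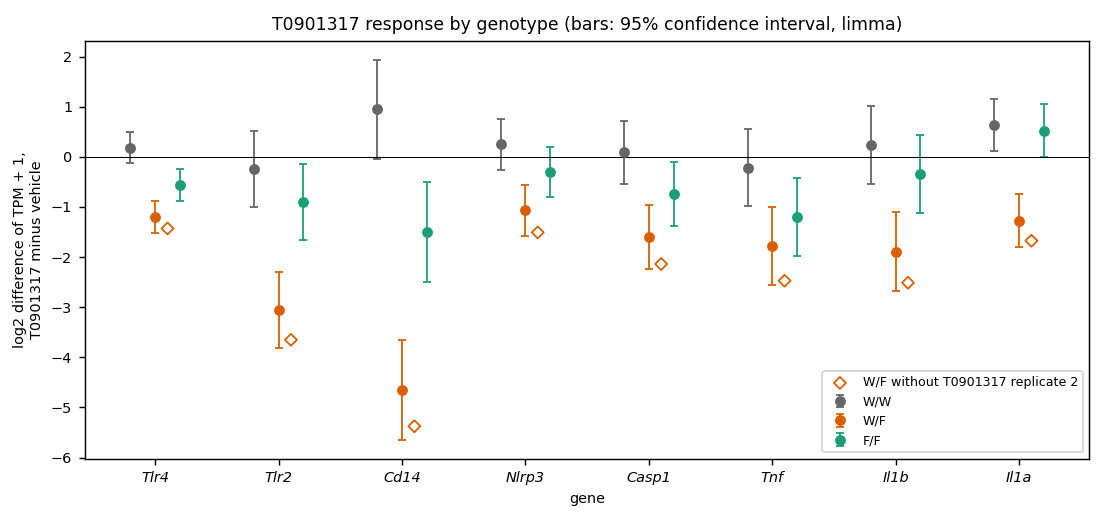
Log2 difference of TPM + 1 between T0901317 and vehicle (vertical axis) for the 8 tested genes (horizontal axis) in W/W, W/F and F/F livers, with 95% confidence intervals from limma, and open diamonds for W/F without T0901317 replicate 2. W/F points lie below 0 for 8 of 8 genes, from -1.07 for Nlrp3 to -4.65 for Cd14, and W/W intervals include 0 for 7 of 8 genes.

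The T0901317 contrast was more negative in W/F than in W/W for 8 of 8 genes, where 53.2% of all tested genes were called in that direction, by 1.31 (Nlrp3, SE 0.35) to 5.59 (Cd14, SE 0.69). The Tnf call was lost there on rescaled TPM (-1.17, adjusted p = 0.0784), with voom (-2.20, adjusted p = 0.144) and in a fit without the other groups (adjusted p = 0.0622). The contrast was more negative in F/F than in W/W for 2 of 8, a count near the 27.2% of all tested genes: Cd14 by 2.44 (SE 0.69, adjusted p = 0.00853, limma) and Tlr4 by 0.75 (SE 0.22, adjusted p = 0.0115, limma), the latter lost on rescaled TPM (-0.54, adjusted p = 0.074). It was less negative in F/F than in W/F for 5 of 8, where 17.6% were: Cd14 by 3.15 (SE 0.69), Tlr2 by 2.16 (SE 0.52), Il1a by 1.79 (SE 0.36), Il1b by 1.55 (SE 0.54) and Tlr4 by 0.64 (SE 0.22). The calls of Il1b (adjusted p = 0.0426) and Tlr4 (adjusted p = 0.0407) were lost on rescaled TPM and without any of several single libraries of the 4 groups (adjusted p up to 0.13 and 0.111). Casp1 (0.86), Nlrp3 (0.77) and Tnf (0.58) did not pass, and without W/F T0901317 replicate 2 they did, at 1.40, 1.21 and 1.27 (adjusted p = 0.0009, 0.000194 and 0.00464, limma).

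With T0901317, no gene of the 8 was called between W/F and W/W livers, and 8 were called between F/F and W/W. Between W/F and W/W, 0 of 8 genes were called by limma and 0 by voom, where 9.88% of all tested genes were called in either direction, and 1 (Tnf, 0.86, adjusted p = 0.166) had an unadjusted p under 0.05. Without W/F T0901317 replicate 2, limma again called 0 of 8, but 5 genes had an unadjusted p under 0.05, each with a negative W/F minus W/W difference: -0.90 for Cd14, -0.73 for Il1b, -0.52 for Il1a, -0.50 for Casp1 and -0.45 for Nlrp3 (adjusted p 0.0815 to 0.173). With that library the same differences were -0.17, -0.11, -0.12, 0.04 and -0.01. Tnf was at 0.17 without replicate 2, and it was called without W/F T0901317 replicate 1 (1.21, adjusted p = 0.0414). Between F/F and W/W with T0901317, 8 of 8 were higher, where 56.3% of all tested genes were higher, from 0.67 for Nlrp3 (SE 0.25) to 3.20 for Cd14 (SE 0.49). On rescaled TPM 5 stayed called, and Il1a, Il1b and Nlrp3 did not. Il1b was also lost without W/W T0901317 replicate 1, 3 or 4 or F/F T0901317 replicate 1 or 2 (adjusted p 0.0677 to 0.114), and Nlrp3 without W/W T0901317 replicate 1 or 4 or F/F T0901317 replicate 1 (adjusted p 0.0506 to 0.0861). Between F/F and W/F with T0901317, 7 of 8 were higher, where 58.5% were, and 8 without W/F T0901317 replicate 2. Tnf was the gene that changed, from 0.68 (adjusted p = 0.117) to 1.38 (adjusted p = 1.48e-05, limma), and it was also called without F/F T0901317 replicate 3 (0.98, adjusted p = 0.0304). Il1b (1.04) and Nlrp3 (0.68) lost their calls without F/F T0901317 replicate 1 or W/F T0901317 replicate 1 or 4, Il1b also without F/F T0901317 replicate 2 and Nlrp3 without W/F T0901317 replicate 3 (adjusted p 0.0592 to 0.117 for Il1b and 0.0657 to 0.089 for Nlrp3). On rescaled TPM 4 of the 7 stayed called (limma). Il1a (0.55, adjusted p = 0.0772), Il1b (0.70, adjusted p = 0.139) and Nlrp3 (0.41, adjusted p = 0.187) lost their calls there. Cd14 levels of these groups did not overlap, and levels of the other genes did. That overlap came from W/F T0901317 replicate 2 alone.

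The inducible enzyme genes were close to the counting limit. Ptgs2, the gene of cyclooxygenase-2, which starts prostaglandin synthesis, was listed at 0 in 4 of 4 W/W T0901317 livers, which allows a level of up to 0.0477 to 0.0734 TPM by the limit of 3 reads. It stood at 0.267, 0.719, 0.609 and 0.336 TPM in W/F vehicle livers (15 to 28 reads each) and at 0.521, 0.679, 0.722 and 0.632 TPM in F/F vehicle livers (21 to 29 reads each). W/W vehicle livers had 0.0451, 0, 0 and 0.0858 TPM, so both mutants lay above them with no overlap. In a fit of 32923 genes without the filter, Ptgs2 was higher than W/W by 0.51 in W/F and by 0.67 in F/F (SE 0.11 for both, adjusted p = 0.000206 and 3.58e-06, limma). In that fit it fell with T0901317 by 0.34 in W/F and 0.50 in F/F livers (adjusted p = 0.0114 and 0.00151, limma).

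Nos2, the gene of inducible nitric oxide synthase, was highest in W/F T0901317 replicate 2, at 4.51 TPM and 214 reads, while the other 3 livers of that group stood at 0, 0.147 and 0.0431 TPM. It stood at 0.588, 0.426, 0.685 and 0.279 TPM in W/F vehicle livers and at 0.851, 0.548, 0.414 and 0.774 TPM in F/F vehicle livers. W/W vehicle livers had 0, 0, 0.0685 and 0.824 TPM, so that W/W replicate 4 reached the mutant level. F/F T0901317 livers had 0.314, 0.305, 0.180 and 0.146 TPM, all below F/F vehicle. Without the filter Nos2 was called in 0 of 20 comparisons by limma, and 1 of them (W/F against W/W with T0901317, which rests on replicate 2) had an unadjusted p under 0.05.

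Summed levels of macrophage and neutrophil markers moved with these results. In bulk liver, fewer cells of a type and less RNA per cell cannot be told apart. The summed level of the 14 macrophage markers was 232 to 657 TPM over the W/W livers, 160 to 319 TPM in W/F chow, 3771 to 4697 TPM in W/F vehicle, and 290 to 432 TPM in W/F T0901317 apart from 1756 TPM in replicate 2. It was 710 to 1127 TPM in F/F chow, 4224 to 5352 TPM in F/F vehicle and 1939 to 3127 TPM in F/F T0901317 livers. The sum leans on Lyz2, 1 of the 14 markers. Its mean was 91.3 TPM of a mean sum of 408 TPM in W/W vehicle livers. It was 2414 of 4079 TPM in W/F vehicle and 3228 of 4974 TPM in F/F vehicle livers. Adgre1, another marker of the list, had means of 6.11, 31.4 and 39.2 TPM in these groups. On vehicle, 10 of the 14 markers were higher and 2 lower in W/F than in W/W, where 61.6% of all tested genes were higher. In F/F against W/W on vehicle 10 were higher and 4 lower, where 69.3% of all tested genes were higher. With T0901317 in W/F 2 were higher and 10 lower, where 59.3% of all tested genes fell. With T0901317 in F/F 2 were higher and 4 lower (2 and 2 on rescaled TPM), where 31.2% of all tested genes fell. The counts of higher markers on vehicle, and of lower markers in F/F with T0901317, are near these shares. None of the 14 markers was at 0 throughout. Of 4 markers lower in F/F than in W/W on vehicle, Clec4f, a marker of resident Kupffer cells, stood at 68.0 to 77.6 TPM in W/W vehicle livers, 25.0 to 64.6 TPM in W/F vehicle, 0.168 to 0.508 TPM in F/F vehicle and 26.6 to 37.3 TPM in F/F T0901317 livers. Vsig4 took a like course in F/F livers, but on vehicle it lay above W/W in W/F, where Clec4f lay below. Vsig4 stood at 23.3 to 24.5 TPM in W/W vehicle, 26.2 to 39.8 TPM in W/F vehicle, 0.465 to 1.61 TPM in F/F vehicle and 15.4 to 28.8 TPM in F/F T0901317 livers. Timd4, another resident marker, was at 0 to 0.730 TPM in the F/F livers of the 3 conditions, and Marco was at 0.0598 to 1.24 TPM in F/F vehicle livers against 2.73 to 19.0 TPM in W/W vehicle livers.

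Neutrophil markers (10 genes, of which Mpo was under the filter) summed to 2.34 to 30.1 TPM over W/W livers, 93.9 to 171 TPM in W/F vehicle, 7.20 to 26.9 TPM in W/F T0901317, 22.2 to 49.5 TPM in F/F chow, 163 to 466 TPM in F/F vehicle and 29.2 to 99.9 TPM in F/F T0901317 livers. T and NK cell markers summed to at most 21.1 TPM in any liver (W/F T0901317 replicate 2), with Cd3e, Klrb1c and Ncr1 under the filter. B cell markers summed to at most 8.68 TPM, with Ms4a1 and Pax5 under it. Hepatocyte markers summed to 71629 to 107136 TPM in W/W livers and 37556 to 39935 TPM in F/F vehicle livers. Stellate cell markers summed to 96.7 to 151 TPM in W/W vehicle, 553 to 748 TPM in W/F vehicle and 964 to 1150 TPM in F/F vehicle livers. Bile duct markers (Krt19, Krt7, Epcam, Sox9 and Spp1) summed to 54.0 to 61.4, 1163 to 1590 and 2908 to 3554 TPM in the same groups, and endothelial markers to 63.0 to 76.8, 36.6 to 51.5 and 50.8 to 75.7 TPM. Single levels of the 5 bile duct markers are not given here, so 1 of them may carry most of that sum. The part of these cell types in the results on the 10 genes was not tested.

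**Figure D4:**
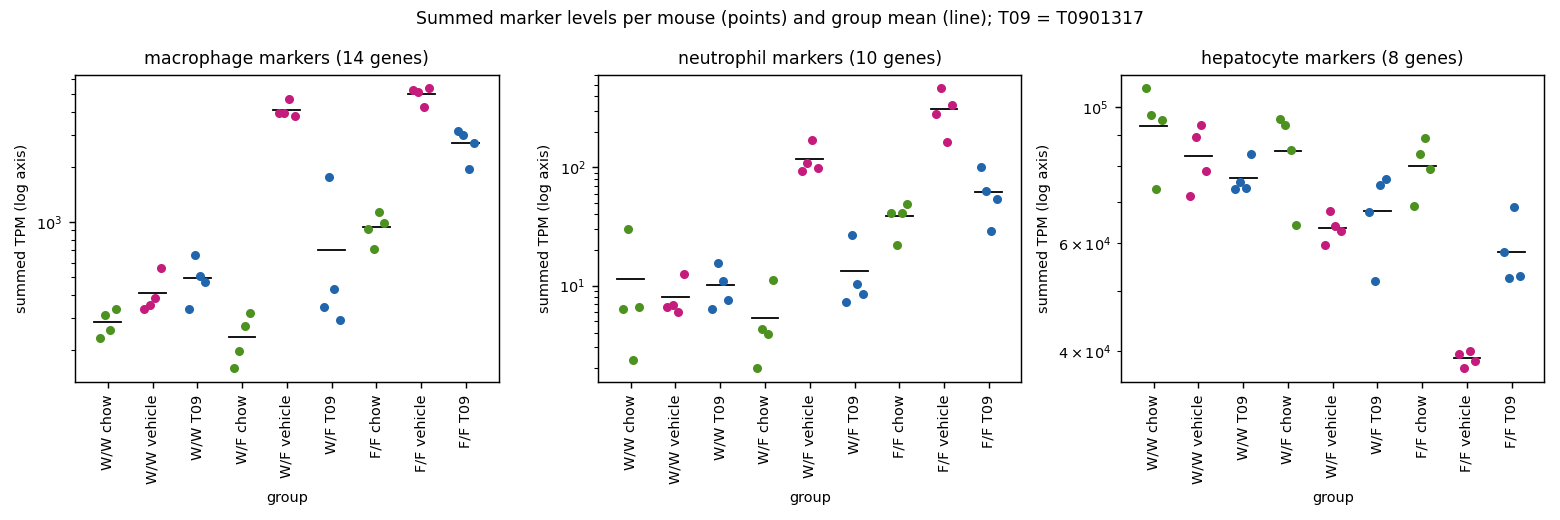
Summed TPM (vertical axes, log scale) of the macrophage, neutrophil and hepatocyte marker lists in each mouse (points), with group means (lines), for the 9 groups (horizontal axes). Macrophage sums lie between 3771 and 5352 TPM in the W/F and F/F vehicle livers and at or under 657 TPM in the W/W livers. Lyz2 alone gave means of 2414 and 3228 TPM to the sums of the W/F and F/F vehicle livers.

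Set against the macrophage list within each library, the genes did not keep 1 ratio. The log2(TPM + 1) level of Cd14 minus the mean of the 14 macrophage markers was -1.66 (range -2.22 to -1.05) in W/W vehicle livers, 1.74 (1.33 to 2.05) in W/F vehicle, 2.70 (2.23 to 2.89) in F/F vehicle and 1.52 (0.50 to 2.83) in F/F chow livers. For Tlr2 it was -2.49 (-2.82 to -2.36), -1.03 (-1.22 to -0.94) and -0.45 (-0.55 to -0.37) in the 3 vehicle groups. For Il1b it was -2.65 (-2.95 to -2.41), -2.65 (-3.14 to -2.11) and -2.42 (-2.75 to -2.14), with overlapping groups. Cd14 and Tlr2 of both mutants lay above W/W relative to this list without overlap, and Il1b did not. Other genes went the other way in W/F. Tlr4 was at -3.61 (-3.74 to -3.54) in W/W vehicle livers, below that at -4.17 (-4.53 to -3.87) in W/F and above it at -3.32 (-3.35 to -3.25) in F/F. Nlrp3 was at -3.28 (-3.37 to -3.09) in W/W, below that at -4.0 (-4.31 to -3.54) in W/F and overlapping it at -3.35 (-3.49 to -3.26) in F/F. Il1a was likewise below W/W in W/F and overlapped it in F/F. Casp1 overlapped W/W in W/F and lay above it in F/F, and Tnf lay above W/W in both mutants. For genes near 0 TPM, such as Tnf, Nlrp3 and Tlr4 in W/W, this value cannot fall below minus the list mean, and that mean was 3.99 for W/W, 6.01 for W/F and 5.28 for F/F vehicle livers. The list mean of F/F livers includes the low Clec4f, Vsig4, Timd4 and Marco, 4 of its 14 genes, which lowers it and raises the F/F values of each gene.

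Other genes of the same pathways were counted from 8 lists, which hold none of the 10 genes. The shares over all tested genes given above (61.6% higher in W/F and 69.3% in F/F on vehicle, 59.3% lower with T0901317 in W/F and 31.2% in F/F) are the background for counts on TPM as deposited. They are not the background for the counts on rescaled TPM, for which no share is given. On vehicle, W/F against W/W, 12 of 13 Toll-like receptor and lipopolysaccharide recognition genes were higher and 0 lower, with a median log2 difference of 1.69, against 0.52 for all tested genes. Tlr13, a receptor for bacterial ribosomal RNA, stood at 15.9 ± 5.55 TPM in W/F against 0.489 ± 0.259 TPM in W/W (SD, n = 4), a log2 difference of 3.46 (SE 0.26). Tlr1, the partner of TLR2, stood at 16.5 ± 4.59 against 1.02 ± 0.517 TPM (3.10, SE 0.28). Of 14 adaptors and kinases 13 were higher and 0 lower, among them Irak3, an inhibitory kinase of this pathway (3.09, SE 0.26). On rescaled TPM the adaptors split into 3 higher and 2 lower, so their direction depends on the scaling, while the receptors split into 10 and 1.

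Of 16 inflammasome and pyroptosis genes 12 were higher and 3 lower in W/F than in W/W on vehicle. Casp4, which senses lipopolysaccharide inside cells, stood at 10.1 ± 1.41 against 1.04 ± 0.607 TPM (2.48, SE 0.29), and Nlrp12, known as a brake on NF-kappaB signalling, was lower at 5.37 ± 0.339 against 16.7 ± 2.28 TPM (-1.47, SE 0.22; SD, n = 4 for each mean). Of 7 tested genes of the IL-1 family and its receptors 5 were higher and 1 lower. Il1rn, the antagonist of the IL-1 receptor, stood at 26.3 ± 3.03 TPM in W/F, at 37.8 ± 3.29 TPM in F/F and at 1.12 ± 0.277 TPM in W/W vehicle livers (SD, n = 4), log2 differences of 3.69 and 4.20 (SE 0.30 for both). The lower gene was Il1rap, the accessory chain of the IL-1 receptor, at 11.8 ± 0.613 TPM in W/F, 8.15 ± 0.578 TPM in F/F and 29.5 ± 2.15 TPM in W/W (SD, n = 4).

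TNF receptors and signalling genes were higher for 13 of 13 (8 on rescaled TPM), among them Tnfrsf1b (2.19, SE 0.21), a TNF receptor, and Ltb (2.58, SE 0.35), a TNF family cytokine. NF-kappaB subunits and inhibitors were higher for 14 of 15 (10 higher and 1 lower on rescaled TPM), among them Relb (2.78, SE 0.27), a subunit, and Tnfaip3 (3.18, SE 0.38), an inhibitor that NF-kappaB itself induces. Prostanoid, leukotriene and nitric oxide enzymes were higher for 10 and lower for 1 of 17, and on rescaled TPM for 6 and 7, so that their direction depends on the scaling and their count is near the share over all genes. Alox5ap, needed for leukotriene synthesis, stood at 32.1 ± 6.54 TPM in W/F, 88.8 ± 14.6 TPM in F/F and 2.91 ± 1.39 TPM in W/W vehicle livers (SD, n = 4). Of 8 tested other cytokine genes 7 were higher, with Tgfb1 (2.35, SE 0.25) and Csf1 (2.19, SE 0.24) among them. The other 8 of the 16 genes of that list did not reach the filter. Medians were 0.71 for the adaptors, 1.00 for the inflammasome list, 0.88 for the IL-1 family, 1.12 for the TNF list, 1.27 for the NF-kappaB list, 0.31 for the prostanoid, leukotriene and nitric oxide enzymes and 1.08 for the other cytokines.

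In F/F against W/W on vehicle, 11 Toll-like receptor genes were higher and 1 lower, 12 of 16 inflammasome genes higher and 2 lower, 13 TNF list genes higher and 0 lower, and 14 NF-kappaB genes higher and 0 lower. On rescaled TPM these 4 lists split into 10 and 1, 9 and 5, 9 and 1 and 9 and 1. The inflammasome count is near the 69.3% of all tested genes. The adaptors (13 higher, 0 lower) and the prostanoid, leukotriene and nitric oxide enzymes (10 higher, 3 lower) split into 4 and 3 and into 6 and 7 on rescaled TPM. With T0901317 in W/F, 11 of 13 Toll-like receptor genes fell and 1 rose, 12 of 16 inflammasome genes fell and 2 rose, 13 of 13 TNF list genes fell and 13 of 15 NF-kappaB genes fell. On rescaled TPM 8, 10, 7 and 10 genes of these 4 lists were lower and 1, 4, 2 and 1 higher. Il1rn fell there by 2.83 (SE 0.30), Relb by 2.34 (SE 0.27) and Alox5ap by 2.75 (SE 0.38), while Nlrp12 (1.65, SE 0.22) and Il1rap (0.95, SE 0.12) rose. With T0901317 in F/F 7 Toll-like receptor genes fell and 1 rose, and 6 inflammasome genes fell and 2 rose, which on rescaled TPM was 5 and 2 and, for the inflammasome list, 1 lower and 2 higher. The inflammasome count of 6 of 16 is near the 31.2% of all tested genes that fell. Il18bp, the decoy that binds IL-18, rose in F/F with T0901317 from 8.49 ± 0.543 to 20.9 ± 2.48 TPM (1.20, SE 0.36), and Pycard, the inflammasome adaptor ASC, fell from 7.12 ± 1.08 to 2.56 ± 1.21 TPM (-1.24, SE 0.19; SD, n = 4). In W/W livers T0901317 raised Tlr5, the flagellin receptor, from 4.79 ± 0.778 to 11.6 ± 2.38 TPM (1.11, SE 0.21) and lowered Il1rap from 29.5 ± 2.15 to 16.2 ± 2.84 TPM (-0.84, SE 0.12; SD, n = 4). Each gene named from the lists had an adjusted p under 0.05 by limma.

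**Figure D5:**
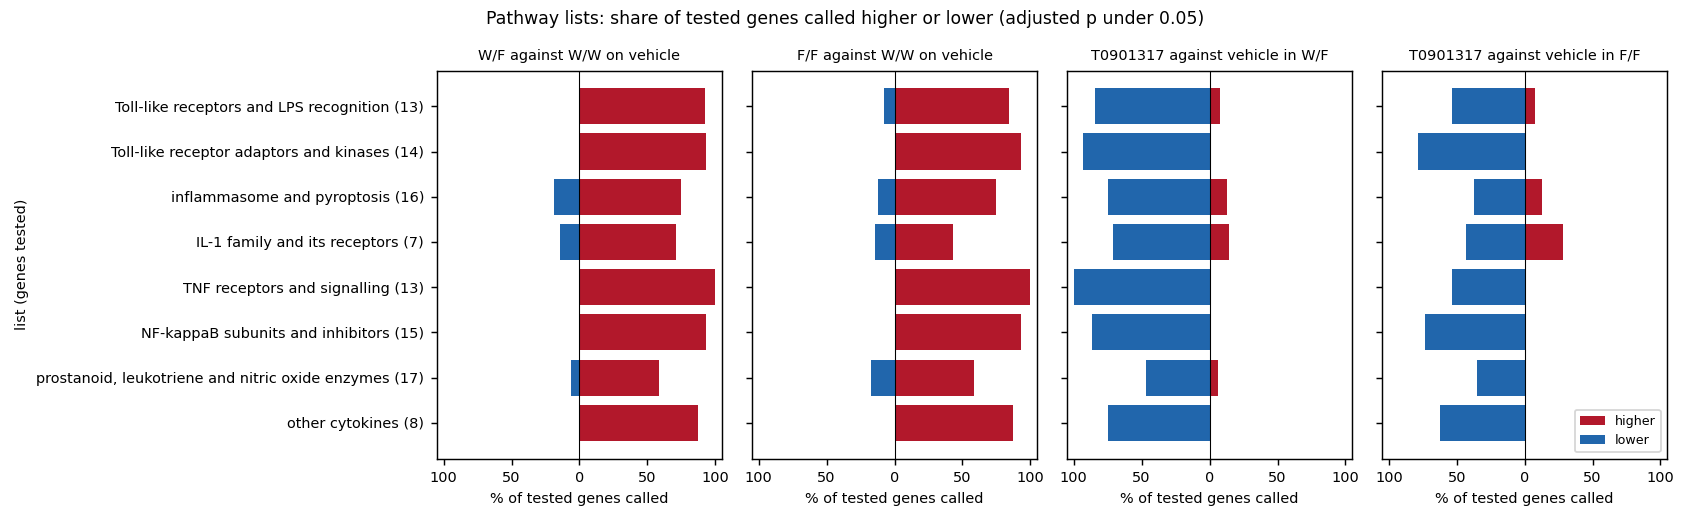
Share of tested genes called higher (red, right) or lower (blue, left) by limma in 8 pathway lists (vertical axis, genes tested in parentheses), in percent (horizontal axes), for 4 comparisons. On vehicle the bars point mostly to higher in both mutants, with 13 of 13 TNF pathway genes higher (8 in W/F and 9 in F/F on rescaled TPM), and with T0901317 mostly to lower.

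Genes whose 9 group means ran most like those of 4 of the genes were looked up among 16599 genes. For Il1b they were Clec4a3 (Pearson r = 0.992), Atp8a1 (0.990) and Gm5431 (0.988), and for Tnf they were Blvra (0.993), Apbb1ip (0.990) and Gm26947 (0.990). For Nlrp3 they were Pik3cd (0.992), Fgr (0.991) and Lcp2 (0.991), and for Tlr4 they were Abr (0.998), Galnt7 (0.998) and Rab7 (0.998). These r values describe 9 group means of 36 shared libraries.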

How the data were processed

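Polyadenylated liver RNA from 36 mice was sequenced. The authors deposited 1 table of TPM values, scaled so that each library has the same total. Reads were processed with Trimmomatic 0.36, STAR 2.5.2b and featureCounts of Subread 1.5.2 on GRCm38/mm10, per the submitters' processing notes, which give these names without their order. Whether reads were counted by strand is not given in the sources used here.

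The 16638 genes that reached 1 TPM in 4 or more libraries were fitted with limma 3.58.1 in R 4.3.3 on log2(TPM + 1), with 1 mean per group of genotype and treatment, moderated with a mean-variance trend. The 20 comparisons were adjusted by Benjamini-Hochberg over all tested genes, with a threshold of 0.05. P-values rest on 1 estimate of spread per gene, taken between mice within all 9 groups and moderated over genes. They do not rest on the compared groups alone. Read numbers were recovered from the steps of the TPM values and exon lengths of GENCODE M21. Of the genes with under 20 reads, 93.7 to 95.7% came within 0.1 of a whole number, and these reads also gave 3 reads as the limit for a listed 0, which covers counting error only. The fit was tested on simulated data.

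The 10 genes, the marker lists and the pathway lists were chosen with earlier results of these data known. All 10 genes are named. A gene of a pathway list is named where it was called, its higher group had a mean of at least 5 TPM, the 4 and 4 mice did not overlap, and its log2 difference was among the 2 largest or 2 smallest of its list. Values of a gene named in 1 comparison may be given in another. For likeness, the 3 genes with the highest r were named. Alternatives were a pseudocount of 0.1, a filter at 5 TPM, no filter, a block for the replicate number, rescaled TPM, limma's weights per library, separate fits for each comparison's own groups, voom on recovered reads, and leaving out each library in turn.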

Additional observations from a re-analysis of the deposited data

Results flagged for a closer look

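In 17 of 90 sets of 4 mice (10 genes in 9 groups) 1 mouse lay farther from the others than Dixon's 95% limit allows. Chance flags about 1 in 20 such sets. Of the 17, 10 were W/F T0901317 replicate 2, the highest of its group with 8.29 TPM for Tnf, 9.13 TPM for Il1b, 10.4 TPM for Il1a, 3.83 TPM for Nlrp3, 16.2 TPM for Casp1, 12.0 TPM for Tlr2, 1.51 TPM for Tlr4, 38.0 TPM for Cd14, 4.51 TPM for Nos2 and 0.650 TPM for Ptgs2. The 10 genes come from the same library and are not independent.

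The other flagged mice were high for Tnf in W/F vehicle replicate 3 (7.80 TPM), for Il1b in W/W T0901317 replicate 2 (3.91 TPM), for Tlr2 in W/F chow replicate 4 (4.45 TPM), for Nos2 in W/W vehicle replicate 4 (0.824 TPM) and for Ptgs2 in W/F chow replicate 1 (0.0262 TPM). The Ptgs2 flag in W/F chow rests on 1 read, with 0 reads in the other mice of the group. Any level above 0 is flagged in such a set, so this flag says nothing about the mouse. Low mice were F/F T0901317 replicate 3 for Tlr2 (8.53 TPM) and for Ptgs2 (0 TPM).

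Responses that differed between genotypes by the test of the difference itself (limma, adjusted p under 0.05) came next. The T0901317 contrast in W/F minus that in W/W was -1.91 for Il1a, -2.13 for Il1b, -2.82 for Tlr2, -1.39 for Tlr4, -1.69 for Casp1, -1.31 for Nlrp3, -1.56 for Tnf and -5.59 for Cd14 on the log2 scale. In F/F minus W/W it was -0.75 for Tlr4 and -2.44 for Cd14. In F/F minus W/F it was 1.79 for Il1a, 1.55 for Il1b, 2.16 for Tlr2, 0.64 for Tlr4 and 3.15 for Cd14.

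The diet contrast in W/F minus that in W/W was 1.97 for Il1a, 2.55 for Il1b, 3.92 for Tlr2, 1.37 for Tlr4, 1.87 for Casp1, 1.59 for Nlrp3, 2.51 for Tnf and 5.83 for Cd14. In F/F minus W/W it was 1.97 for Tlr2, 0.84 for Tlr4, 0.97 for Nlrp3, 1.43 for Tnf and 1.97 for Cd14. The chow mice were another cohort, and its part in the diet contrasts cannot be told apart.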

How the results depend on the processing

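Of 98 called differences of the 8 tested genes, 74 kept their call and sign under every alternative that tested them, 24 lost the call at least once, 22 of them on rescaled TPM, and 0 changed sign. Nos2 and Ptgs2, under the filter, were not part of these 98. Counts of called genes moved by over 1.5 times in these cases, and the cause was not tested. T0901317 in W/W went from 0 to 1 with array quality weights. T0901317 in F/F went from 3 to 1 with a pseudocount of 0.1, to 1 on rescaled TPM, to 5 with array quality weights, to 6 when the other groups were left out of the fit and to 5 with voom. F/F against W/W on T0901317 went from 8 to 5 on rescaled TPM. F/F against W/F on vehicle went from 1 to 2 in a fit of only those groups, and on T0901317 from 7 to 4 there and to 4 on rescaled TPM. The T0901317 response of F/F minus W/W went from 2 to 1 with the filter at 5 TPM, which tests 6 of the 10 genes, and to 1 on rescaled TPM. That of F/F minus W/F went from 5 to 3 without a filter, to 3 on rescaled TPM, to 8 with array quality weights and to 3 in a fit of only those groups. The diet response of F/F minus W/W went from 5 to 3 with a pseudocount of 0.1, to 3 with the filter at 5 TPM, to 1 on rescaled TPM and to 1 with voom.

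Leaving out 1 library gave counts of 0 to 1 for T0901317 in W/W, 1 to 3 for T0901317 in F/F, 6 to 7 for the diet in F/F, 0 to 1 with T0901317 between W/F and W/W. Between F/F and W/W it gave 4 to 5 on chow and 6 to 8 on T0901317. For F/F against W/F it gave 5 to 7 on chow, 0 to 1 on vehicle and 5 to 8 on T0901317. For the T0901317 response of F/F minus W/F it gave 3 to 8 (8 without W/F T0901317 replicate 2), and for the diet response of F/F minus W/W 3 to 6. The other counts did not change. Between W/F and W/W on T0901317, where no gene was called, leaving out 1 library moved Casp1 between -0.50 and 0.23, Cd14 between -0.90 and 0.13, Il1a between -0.52 and 0.0758, Il1b between -0.73 and 0.22 and Nlrp3 between -0.45 and 0.16, with the lowest value each time without W/F T0901317 replicate 2. Casp1 was 0.04 in the fit of all libraries, -0.0022 with a pseudocount of 0.1 and -0.29 with array quality weights.

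With the replicate block, F/F against W/F on chow went from 7 to 6 called genes (Il1a 0.63, adjusted p = 0.0515), and the block changed no other call. The replicate numbers showed no clear pairing, and this check cannot exclude a weak one. In 0 of 36 pairs of groups were all same-numbered correlations over 0.1, and 12 of 36 samples correlated best with a sample of their own number. The median correlation between groups was 0.013 for same-numbered samples and -0.006 for the others. Depth limits Nos2, Ptgs2 and, in W/W and W/F chow livers, Tnf, which rest on few reads. Log2(TPM + 1) understates their differences.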
